A study of Mus musculus with 6 samples.

Results

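Myosin genes were followed in colonic organoids, which are cultures of colon epithelium grown in Matrigel, from mice that had gone through colitis and from control mice. The set held 9 genes of the 40840 in the deposited table, found by their gene names: the regulatory light chain genes Myl7, Myl9, Myl12a and Myl12b, the essential light chain gene Myl6, the non-muscle heavy chain genes Myh9, Myh10 and Myh14, and the kinase gene Mylk. Myl7 was chosen because its level in TPM, a transcript abundance scaled for length and for the library total, was among those that differed most between the same 6 libraries, and the other 8 were added as its relatives. The values of all 9 are therefore a description, given without a test.

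The DSS organoids came from 3 wt C57BL/6 mice that drank 2.5% dextran sodium sulfate (DSS), an agent that damages colon epithelium, for 5 days at 10 weeks of age. After an interval of 2 weeks these mice drank it for another 5 days, and their organoids were established on day 14 after DSS. The control organoids came from 3 wt C57BL/6 mice without DSS, whose age is not given in the sources used here. RNA of both groups was taken on day 4 of culture, with 1 library for each mouse. The methods of the study name L-WRN conditioned medium, serum, gastrin, N-acetyl-L-cysteine and small molecules in the medium of wt organoids. Among the small molecules were Y-27632, an inhibitor of ROCK kinases, A83-01, an inhibitor of TGF-beta type I receptors, SB203580, an inhibitor of p38, and CHIR9902. A model made this way holds cells that survived crypt isolation and culture, and not the inflamed tissue.

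Class II myosins pull on actin filaments. Each molecule holds a pair of heavy chains with the motor, and each heavy chain carries an essential light chain and a regulatory light chain. Phosphorylation of the regulatory light chain, by myosin light chain kinase or ROCK kinases, lets non-muscle myosin form filaments and contract, and myosin phosphatase undoes it. In intestinal epithelium this myosin forms a belt at the cell junctions and takes part in sealing them, in extruding cells and in closing wounds. Myl7 is known as the regulatory light chain of heart atria.

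The promoter of Myl7 is shown because Myl7 is the gene on which the results turn. The window is that of RefSeq on build GRCm38.p6, at chr11:5898733-5899032 on the minus strand, and runs from 250 bases before the start site to 50 bases after it. Capitals mark a CArG box, the element bound by serum response factor (SRF).
Myl7: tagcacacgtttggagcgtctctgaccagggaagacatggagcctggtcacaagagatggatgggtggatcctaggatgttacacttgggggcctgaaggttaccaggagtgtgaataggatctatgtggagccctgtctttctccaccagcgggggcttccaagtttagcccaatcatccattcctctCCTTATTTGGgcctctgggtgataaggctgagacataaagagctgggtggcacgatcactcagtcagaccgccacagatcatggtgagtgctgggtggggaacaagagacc

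All 9 genes had an entry in the RefSeq promoter table, in 10 windows. A CArG box was found in windows of 3 of the 9 genes, namely Myl7, Myl9 and the second of 2 start sites of Myl6. Over the whole promoter table, windows of 488 of 27025 genes (1.81%) held one. By window it was 1.63% of all 32851 windows of 300 bases, searched on both strands. The box lay 61 to 52 bases before the start site in Myl7, 161 to 152 bases before it in Myl9 and 50 to 41 bases before it in Myl6. The stretches around the boxes are set beside each other, since these 3 genes had very different levels in the organoids. They come from chr11:5898809-5898868 (minus strand), chr2:156775278-156775337 (plus strand) and chr10:128493025-128493084 (minus strand) of GRCm38.p6.
Myl7: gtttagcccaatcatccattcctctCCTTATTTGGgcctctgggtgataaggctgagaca
Myl9: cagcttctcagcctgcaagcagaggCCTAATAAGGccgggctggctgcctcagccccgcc
Myl6: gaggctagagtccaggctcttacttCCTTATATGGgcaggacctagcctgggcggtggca

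The Myl7 window also held TGATAA, a form of the GATA factor site, 42 to 37 bases before the start site, and CATAAA, a variant of the TATA box, 28 to 23 bases before it. On both strands, 9.05% and 11.9% of all windows held these motifs, as did, of the other members, Myl6 for TGATAA and Myl12a and Mylk for CATAAA. None of the 3 matches in the Myl7 window overlapped another. TATAAA was in 13.6% of all windows and, of the 9 genes, in that of Myh9. CAGCTG, an E-box, was in 16.3% of all windows and in those of Myl12a and Myh10, and TGACTCA, an AP-1 site, was in 5.20% and in those of Myl12a and Mylk, without overlap in Myl12a. A match is a run of letters and was not tested as a site.

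The libraries listed 11328 to 11607 genes at 1 TPM or more, and their sequencing depth is unknown because TPM keeps none. Values were compared as log2(TPM + 1) by limma across the 11643 genes that averaged 1 TPM or more, among them 7 of the 9 myosin genes. Over those genes 1204 (10.3%) passed an adjusted p of 0.05, 751 higher and 453 lower in DSS organoids, a split that became 634 and 582 after median-ratio scaling and 564 and 606 after quantile normalization. Leaving out 1 DSS library changed that number to 2515 (replicate 1), 1888 (replicate 2) or 103 (replicate 3), and leaving out 1 control library to 140 (replicate 1), 44 (replicate 2) or 148 (replicate 3). The DSS and control values did not overlap for 36.4% of the genes. DSS replicate 1 stood apart from DSS replicates 2 and 3 on the second principal component (25.2% of the variance), so values are also given without it. Epithelial markers were abundant in all 6 libraries, and the summed TPM of 10 epithelial markers, such as Krt8, Krt19 and Epcam, was 9950 in DSS replicate 1 and between 14405 and 16389 in the other 5. Of the 10, 2 passed as higher in DSS organoids, beside 6.45% of all genes, and 0 as lower. Cdx2 averaged 310.9 TPM in DSS and 151.6 TPM in control organoids (limma adjusted p = 0.00553). Epcam averaged 1115 and 777.8 TPM (limma adjusted p = 0.0311). The median log2 fold change of the 10 was −0.17.

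Myl7 was the myosin gene that set the groups apart. Its level was 54.9, 87.3 and 77.5 TPM in the 3 DSS libraries, against 3.64, 3.63 and 1.54 TPM in the 3 control libraries. Every DSS library was thus far above every control library, and the lowest value was in control replicate 3. Mean levels were 73.2 ± 16.6 TPM in DSS and 2.94 ± 1.21 TPM in control organoids (SD, n = 3 each), 24.9-fold apart. The log2 fold change was 4.26 (SE 0.29), at rank 3 of the 11643 genes. It was 4.46 without DSS replicate 1, and between 3.98 (without control replicate 3) and 4.66 (pseudocount of 0.1) over all 15 alternatives.

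**Figure D1:**
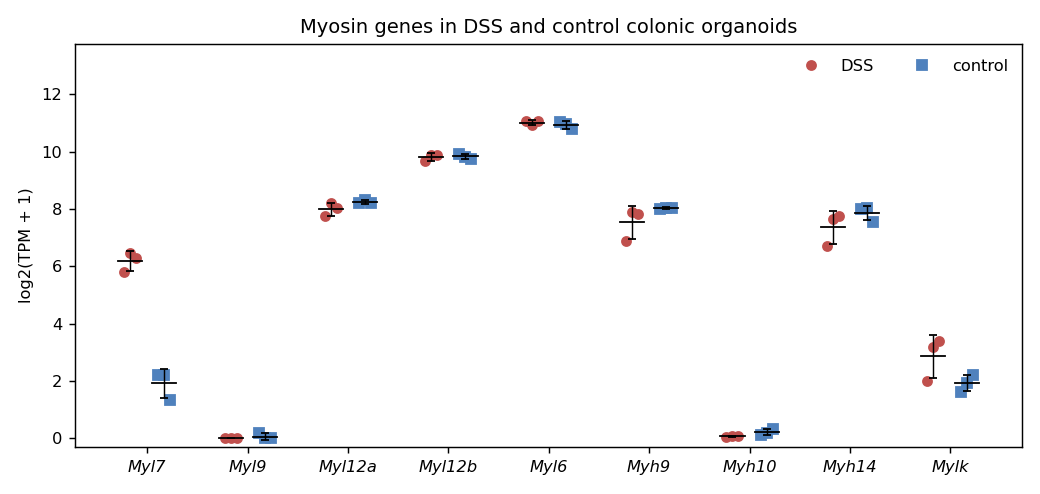
Level of each of the 9 myosin genes as log2(TPM + 1), with 1 point for each library (DSS circles left, control squares right), the mean as a line and the SD as error bars (n = 3 each). Myl7 is the gene with a wide gap between the groups, at 54.9 to 87.3 TPM in DSS and 1.54 to 3.64 TPM in control libraries, while Myl9 and Myh10 sit near 0 in both.

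The other regulatory light chains were either abundant in both groups or nearly absent from both. Myl12b, which with Myl12a encodes the regulatory light chain of most non-muscle cells, was at 809.2, 956.7 and 954.7 TPM in DSS libraries, against 972.6, 904.9 and 866.4 TPM in control libraries. The groups overlapped, with a log2 fold change of −0.01 (SE 0.10) that turned positive in 3 of 15 alternatives, reaching 0.06 without DSS replicate 1. Myl12a was at 214.5, 295.0 and 260.7 TPM in DSS libraries, against 293.3, 318.7 and 296.3 TPM in control libraries. Only DSS replicate 2 reached the control range, and the log2 fold change of −0.25 (SE 0.13) was −0.13 without DSS replicate 1. Myl12a and Myl12b have similar transcripts: in GENCODE M21, 18.8% of the 50-base words of Myl12a and 20.7% of those of Myl12b occur in the other gene. How reads were divided between this pair is therefore uncertain, while 0 such words of Myl7 occur in another of the 9 genes. Myl12b was 3.56 ± 0.28 times Myl12a in DSS and 3.03 ± 0.25 times Myl12a in control organoids.

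Myl9, the regulatory light chain of smooth muscle, was listed at 0 TPM in 5 libraries and at 0.14 TPM in control replicate 1. It lay under the filter on low values and was not fitted. Myl12b and Myl12a were thus the main regulatory light chain transcripts of both groups.

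The share of Myl7 in the regulatory light chain pool puts its rank into proportion. Of the summed TPM of Myl7, Myl9, Myl12a and Myl12b, Myl7 made up 5.09%, 6.52% and 6.00% in DSS libraries, against 0.287%, 0.296% and 0.132% in control libraries. Means were 5.87 ± 0.72% in DSS and 0.238 ± 0.092% in control organoids. The pool itself was of like size, at 1237 ± 139 TPM in DSS and 1220 ± 53 TPM in control organoids, and smallest in DSS replicate 1 (1079 TPM). Myl12b was the largest part, with 73.4 ± 1.8% in DSS and 74.9 ± 1.5% in control organoids, and Myl12a held 20.7 ± 1.2% in DSS and 24.8 ± 1.5% in control organoids. Myl7 was the third regulatory light chain by level in both groups, and in DSS organoids it was at a level under that of Myl12a in every library. Shares of transcripts say nothing of the protein that heavy chains carried.

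**Figure D2:**
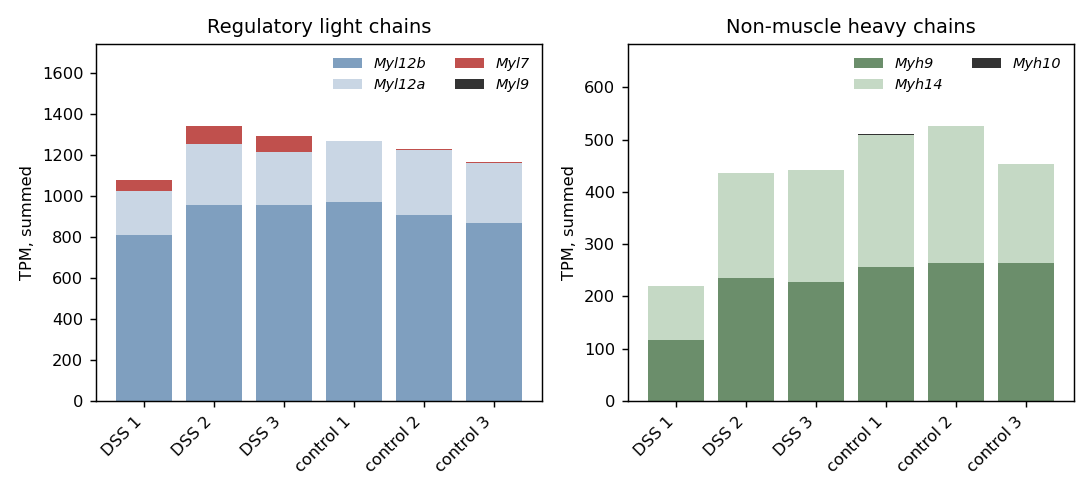
Summed TPM of the regulatory light chain genes (left) and of the non-muscle heavy chain genes (right) in each library, DSS libraries left of control libraries, with the parts stacked by gene. Myl7 forms a slice of 5.09% to 6.52% in the DSS libraries and of 0.132% to 0.296% in the control libraries, and the heavy chain bar of DSS replicate 1 is the shortest at 220.1 TPM. Myl9 and Myh10 are too low to be seen.

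Myl6, the essential light chain of non-muscle and smooth muscle myosin, had the highest level of the set. It was at 2150, 1941 and 2147 TPM in DSS libraries, against 2114, 2011 and 1757 TPM in control libraries. The ranges overlapped, and the log2 fold change was 0.09 (SE 0.10), turning to −0.01 when control replicate 3 and DSS replicate 1 were both left out. Myl6b, a second essential light chain gene outside the set, was low in both groups, at 9.71, 1.72 and 3.90 TPM in DSS and 6.02, 2.97 and 4.37 TPM in control libraries (log2 fold change −0.02, SE 0.49, limma adjusted p = 0.981; −0.54 without DSS replicate 1).

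Among the heavy chains, Myh9 and Myh14 were both abundant and Myh10 was nearly absent. Myh9, which encodes the heavy chain of non-muscle myosin IIA, was at 116.3, 235.5 and 227.9 TPM in DSS libraries, against 256.2, 264.4 and 264.4 TPM in control libraries. All DSS values were below the control values, and DSS replicate 1 was far below the rest. The log2 fold change was −0.50 (SE 0.26), and −0.17 without DSS replicate 1.

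Myh14, the heavy chain of non-muscle myosin IIC, which is known from epithelia, followed a like pattern. It was at 103.7, 200.1 and 213.1 TPM in DSS libraries, against 253.4, 260.7 and 188.3 TPM in control libraries. Control replicate 3 lay inside the DSS range, so the groups overlapped. The log2 fold change was −0.49 (SE 0.29), and −0.17 without DSS replicate 1. The same library was low in transcripts of actin and keratin genes, with Actb at 1163 TPM there and 1943 to 2717 TPM in the other 5 libraries, and Krt8 at 3117 TPM there and 5290 to 6219 TPM in the other 5. Krt18, Krt19, Krt20, Cdh1 and Vil1 were also lowest of all 6 in it, with Cdh1 at 244.1 TPM and Vil1 at 217.5 TPM. Not all epithelial markers were low in it. Epcam was at 1007 TPM, above the 726.4 to 826.3 TPM of control libraries, and Cdx1 at 400.4 TPM was the highest of all 6. Whether the composition of DSS replicate 1 had a part in its low heavy chain values was not tested.

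The balance of Myh9 and Myh14 was alike in both groups. Myh9 made up 52.9 ± 1.2% of the summed heavy chain TPM in DSS and 53.0 ± 4.7% in control organoids. The highest share was in control replicate 3, at 58.4%, and the other 5 libraries lay between 50.3% and 54.1%. Myh10, the heavy chain of non-muscle myosin IIB, was at 0.04, 0.07 and 0.05 TPM in DSS libraries, against 0.08, 0.14 and 0.26 TPM in control libraries. These values did not overlap but were all under 0.3 TPM, and Myh10 was not fitted. The summed heavy chain TPM was 365.6 ± 126.0 in DSS and 496.0 ± 38.0 in control organoids. The regulatory light chain pool was 4.90, 3.07 and 2.93 times the heavy chain pool in DSS libraries, against 2.49, 2.34 and 2.57 times in control libraries, the outlying value being that of DSS replicate 1.

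Mylk encodes myosin light chain kinase, whose long form in gut epithelium is known to act on tight junctions. The gene also gives a short kinase and telokin, which gene-level TPM does not separate. Mylk was at 3.01, 8.21 and 9.52 TPM in DSS libraries, against 2.09, 2.82 and 3.58 TPM in control libraries. DSS replicates 2 and 3 were above all control libraries and DSS replicate 1 lay within their range. The log2 fold change was 0.95 (SE 0.38), and 1.38 without DSS replicate 1.

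Set in order of level, the DSS organoids had Myl6, Myl12b, Myl12a, Myh9, Myh14, Myl7, Mylk, Myh10 and Myl9. The control organoids had the same order. The ranges of Myh9 and Myh14 overlapped in both groups, and those of Myl12a and Myh9 overlapped in DSS organoids. In control organoids the ranges of Myl7 and Mylk overlapped, as did those of Myh10 and Myl9. In DSS organoids Myl7 stood clear of both neighbours, between 103.7 TPM, the lowest value of Myh14, and 9.52 TPM, the highest of Mylk. Of the 7 fitted genes 1, Myl7, passed the limma threshold (10.3% of all genes tested did), as higher in DSS organoids (6.45% of all genes), and 0 passed as lower (3.89%). With Mylk, 2 had an unadjusted p under 0.05, as did 29.6% of all genes tested. The median log2 fold change of the 7 was −0.01, beside 0.05 over all genes tested. As Myl7 was chosen on this contrast, nothing is read from these counts.

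Other kinases, the phosphatase and calmodulin were looked at because they set the phosphorylation of the regulatory light chain. Of 24 such genes 19 were tested, and by limma 0 passed, with 4 at an unadjusted p under 0.05 (among them Cit, Ppp1r14a and Dapk1), a p that 29.6% of all genes tested had. Without DSS replicate 1, 5 of the 19 passed, all higher in DSS (Rock1, Rock2, Cdc42bpa, Cdc42bpb and Ppp1cb), when 21.7% of all genes passed. The median log2 fold change of the 19 in the main fit was 0.10. Cit was at 4.63, 1.98 and 4.17 TPM in DSS libraries, against 1.02, 1.21 and 1.08 TPM in control libraries, without overlap (log2 fold change 1.07, SE 0.27, limma adjusted p = 0.0528). It passed as higher with a pseudocount of 0.1 or 0.5, with no mean-variance trend and without DSS replicate 2. The ROCK kinase gene Rock1 differed by 0.22 on the log2 scale (SE 0.18, limma adjusted p = 0.442) and Rock2 by 0.26 (SE 0.21, limma adjusted p = 0.438). Without DSS replicate 1 the differences were 0.40 for Rock1 and 0.50 for Rock2 (limma adjusted p = 0.0497 and 0.0146). Rock2 was at 39.8, 68.1 and 64.4 TPM in DSS libraries, against 44.4, 46.2 and 48.8 TPM in control libraries. DSS replicate 1 was again the lowest. The phosphatase genes Ppp1cb, its catalytic subunit, and Ppp1r12a, its myosin-targeting subunit, had log2 fold changes of 0.16 and −0.27 (limma adjusted p = 0.650 and 0.588). Without DSS replicate 1 Ppp1cb was at 0.38 and passed (limma adjusted p = 0.0440), and Ppp1r12a turned to 0.07 (adjusted p = 0.754). Ppp1r14a, which encodes an inhibitor of myosin phosphatase, was at 3.25, 5.41 and 7.20 TPM in DSS libraries, against 13.0, 14.2 and 8.10 TPM in control libraries, without overlap (log2 fold change −1.04, SE 0.30, limma adjusted p = 0.0735).

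Among small GTPases of the cytoskeleton and their regulators 3 of 20 tested genes passed, beside 10.3% of all genes, and 6 of 21 did without DSS replicate 1, beside 21.7%. Racgap1, a GTPase-activating protein of cell division, rose to 47.5 ± 19.4 TPM in DSS organoids, against 14.2 ± 1.2 TPM in control organoids (log2 fold change 1.59, SE 0.31, limma adjusted p = 0.0298). Arhgdib, a GDP dissociation inhibitor of such GTPases known from blood cells, rose to 2.14 ± 0.33 TPM, against 0.203 ± 0.064 TPM in control organoids (1.38, SE 0.19, adjusted p = 0.0139). Arhgdib entered the fit only through its DSS values, and it was not tested without DSS replicate 2 or with a filter of 5 TPM. Arhgef2, an exchange factor that activates RhoA, fell to 11.3 ± 3.6 TPM, against 27.1 ± 5.3 TPM in control organoids (−1.21, SE 0.25, adjusted p = 0.0323). Rhoa itself was at 323.5, 376.5 and 328.7 TPM in DSS and 343.5, 364.1 and 340.8 TPM in control libraries (−0.03, SE 0.10, adjusted p = 0.866). Arhgap5, a GTPase-activating protein that the study examined in tumours, was at 16.4, 25.6 and 25.1 TPM in DSS and 19.0, 18.2 and 18.8 TPM in control libraries (0.22, SE 0.18, limma adjusted p = 0.454). Without DSS replicate 1 its difference was 0.42 and passed (limma adjusted p = 0.0225).

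Of 30 tested partners of actin and myosin filaments, 1 rose and 2 fell, close to the 10.3% of all genes, with a median log2 fold change of −0.05. Anln, which encodes anillin, a scaffold of the contractile ring in dividing cells, rose to 18.7 ± 7.2 TPM in DSS organoids, against 5.23 ± 0.43 TPM in control organoids (log2 fold change 1.59, SE 0.29, limma adjusted p = 0.0252). Actn1, an actin crosslinker, fell to 53.0 ± 1.1 TPM, against 69.0 ± 1.8 TPM in control organoids (−0.38, SE 0.09, adjusted p = 0.0430). Cald1, which encodes caldesmon, fell to 0.530 ± 0.478 TPM, against 2.21 ± 0.27 TPM in control organoids (−1.11, SE 0.26, adjusted p = 0.0466). Cald1 entered the fit only through its control values. The actin genes Actb and Actg1 had log2 fold changes of −0.46 and −0.31 (limma adjusted p = 0.306 and 0.435), and −0.16 and −0.02 without DSS replicate 1. Racgap1 and Anln were both highest in DSS replicate 1, where Myh9 and Myh14 were lowest.

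**Figure D3:**
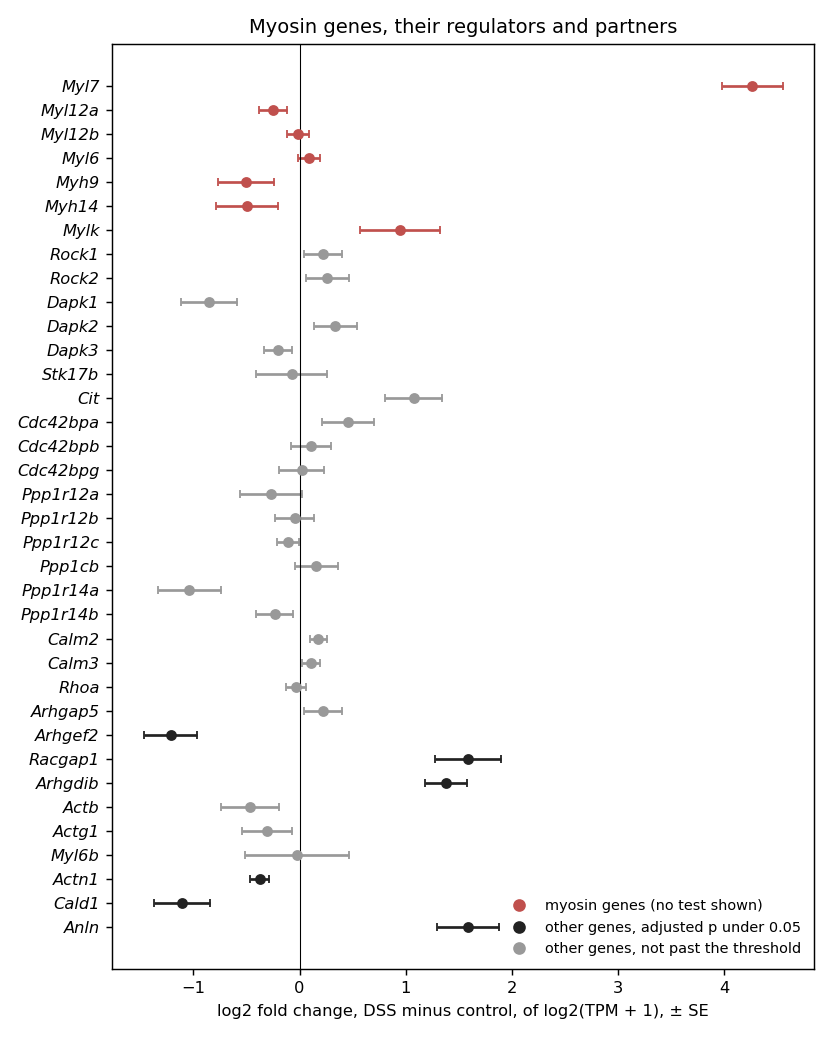
Log2 fold change (DSS minus control) on the log2(TPM + 1) scale, with the moderated SE as bars, for the 7 fitted myosin genes, 18 of the 19 tested kinase, phosphatase and calmodulin genes and 11 named GTPase, actin and filament genes. Myl7 sits at 4.26, while the other 6 myosin genes lie between −0.50 and 0.95.

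Unconventional myosins, which carry cargo or tether membranes to actin, had 2 rises and 0 falls among 14 tested genes, beside 10.3% of all genes, and 3 of the 14 had an unadjusted p under 0.05 by limma, beside 29.6%. Myo19, the mitochondrial myosin, rose to 32.1 ± 3.1 TPM in DSS organoids, against 16.9 ± 0.3 TPM in control organoids (log2 fold change 0.88, SE 0.11, limma adjusted p = 0.0112). Myo1a, the brush border myosin, was at 77.4, 231.5 and 197.7 TPM in DSS and 148.2, 162.4 and 163.2 TPM in control libraries (−0.05, SE 0.39, adjusted p = 0.947). Its DSS range enclosed the control range, with DSS replicate 1 lowest, and without that library it differed by 0.44 and passed (limma adjusted p = 0.0293).

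In the SRF pathway, which is known to act through CArG boxes, 0 of 8 tested genes rose and 2 fell, and 3 of the 8 had an unadjusted p under 0.05 by limma. Of all genes, 10.3% passed and 29.6% had such a p. The median log2 fold change of the 8 was −0.02. Among the 3, Mrtfa was higher in DSS organoids, though it did not pass. It was at 11.8, 11.8 and 13.6 TPM in DSS and 10.3, 9.44 and 8.56 TPM in control libraries, without overlap (log2 fold change 0.36, SE 0.13, limma adjusted p = 0.113). Srf, the factor itself, was at 18.8, 25.3 and 22.1 TPM in DSS and 19.8, 22.0 and 21.8 TPM in control libraries (log2 fold change 0.05, SE 0.14, limma adjusted p = 0.853). Tagln2 fell to 531.7 ± 15.7 TPM in DSS organoids, against 675.9 ± 22.4 TPM in control organoids (−0.35, SE 0.08, adjusted p = 0.0426). The secreted factor gene Ccn1 fell to 7.21 ± 3.12 TPM, against 20.6 ± 7.3 TPM in control organoids (−1.40, SE 0.34, adjusted p = 0.0485). Ankrd1, of the same list but under the filter, was at 0.06, 0.07 and 0 TPM in DSS and 1.17, 1.94 and 2.20 TPM in control libraries, without overlap. It passed as lower with no filter on low values. Leaving out DSS replicate 1, 2 or 3 let Ankrd1 into the fit through its control values. It passed as lower without replicate 1 or 2, while without replicate 3 it did not, and 0 of 9 tested genes passed. A gene that enters this way gives no test of a fall.

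These calls on genes outside the set rested on few libraries, and some on the processing. Of the 111 tested genes of all lists, 18 passed. Lyz2, Tyrobp, Fcer1g and Cdx2 were the 4 that passed in every alternative in which they were tested, and they were the 4 that passed without DSS replicate 3 or without control replicate 1, 2 or 3. The remaining 14 did not pass in any of those 4 fits. Cald1 also lost its call with either lower pseudocount, with no filter on low values and with a replicate block, and passed in 5 of 14 alternatives. Tagln2 passed in 7 of 15, and Ccn1 in 6 of 15, its call ending also without DSS replicate 1. With no filter on low values 10 of the 18 passed.

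Muscle genes other than Myl7 were nearly absent from both groups. Of 17 muscle myosin genes 9 were at 0 in all libraries and 16 stayed under 1 TPM in all of them. The exception was Mylpf, a skeletal muscle light chain gene, at 7.17, 3.44 and 2.77 TPM in DSS and 1.92, 4.17 and 3.21 TPM in control libraries (log2 fold change 0.37, SE 0.35, limma adjusted p = 0.523; 0.04 without DSS replicate 1). Myh6, the atrial heavy chain that pairs with Myl7 in heart, and Actc1 and Sln, the atrial sarcolipin gene, were at 0 in all 6 libraries. Myl4, the atrial essential light chain, was at 0.32, 0.19 and 0.04 TPM in DSS and 0, 0 and 0.63 TPM in control libraries. Over 21 cardiac genes the summed TPM was 1.86 to 5.17 in DSS and 1.32 to 3.40 in control libraries, ranges that overlap. Tnnt2, Gata4 and Tnnc1 gave the most, and 0 of the 21 passed the filter on low values. Gata4, a GATA factor of heart and gut, was at 0.35, 1.07 and 1.66 TPM in DSS and 0, 0.10 and 0.27 TPM in control libraries, without overlap. Tnnt2 was at 0, 1.91 and 1.92 TPM in DSS and 0.51, 0.93 and 0.66 TPM in control libraries. Without DSS replicate 1, the DSS library at 0, Tnnt2 entered the fit through its DSS values and passed (log2 fold change 0.79, limma adjusted p = 0.0474). In that fit 21.7% of all genes passed, and a gene that enters this way gives no test of a rise.

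Smooth muscle genes other than Smtn were as low. The 12 smooth muscle markers summed to 6.59 to 11.3 TPM in DSS and 4.35 to 5.70 TPM in control libraries, most of it Smtn, at 10.4, 5.47 and 6.60 TPM in DSS and 3.59, 4.17 and 3.02 TPM in control libraries (log2 fold change 0.85, SE 0.24, limma adjusted p = 0.0670, with 1 of 1 tested marker at an unadjusted p under 0.05). Without DSS replicate 1 Smtn differed by 0.62 and passed (limma adjusted p = 0.0468). The other list gene to reach 1 TPM was Acta2, in control replicate 2 (1.40 TPM), while 10 of the 12 stayed under it, and Cnn1, Lmod1 and Hhip were at 0 in all libraries. Myh11, the heavy chain that defines smooth muscle, was at 0 in all DSS libraries and at most 0.11 TPM in control libraries. The sums did not overlap, and their part in the Myl7 level was not tested.

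Other cell types were also checked. The 12 fibroblast markers summed to 6.93 to 17.9 TPM in DSS and 1.45 to 2.72 TPM in control libraries, with Col1a2, Col3a1, Lum, Thy1 and Col6a3 at 0 in all 6. Vim, an intermediate filament gene that myeloid cells also express, made up 82.4% to 88.5% of that sum in DSS libraries and 26.9% to 55.5% in control libraries. It was at 5.92, 15.9 and 10.2 TPM in DSS and 0.670, 1.51 and 0.390 TPM in control libraries (log2 fold change 2.60, SE 0.37, limma adjusted p = 0.0139). With a control mean of 0.857 TPM, Vim entered the fit through its DSS values. Pdgfrb, a receptor gene of fibroblasts and pericytes, was at 0.83, 2.04 and 2.04 TPM in DSS and 0.88, 1.21 and 1.04 TPM in control libraries. Endothelial markers summed to 0.410 to 0.620 TPM in DSS and 0.630 to 1.39 TPM in control libraries.

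Myeloid transcripts did move with Myl7. The 12 myeloid markers summed to 226.1, 289.7 and 175.3 TPM in DSS replicates 1, 2 and 3, against 11.2, 6.17 and 6.21 TPM in control libraries. Of 6 tested markers 5 rose (Lyz2, Tyrobp, Fcer1g, Itgam and Cd74), beside 6.45% of all genes, with a median log2 fold change of 3.01. Of the 5, Tyrobp, Fcer1g, Itgam and Cd74 averaged under 1 TPM in control libraries and entered the fit through their DSS values. The count and the median are therefore no test of a rise. With no filter on low values 9 of the 12 rose, when 3.77% of all genes passed. Lyz2, the macrophage lysozyme, gave the most, followed by Cd74 and Cd68. Defining myeloid genes were low but present in DSS libraries, with Csf1r at 1.08 to 2.79 TPM and Ptprc at 0.300 to 0.470 TPM, against at most 0.0900 and 0.0800 TPM in control libraries. Aif1, of the same list, did not rise, at 0, 0.22 and 0 TPM in DSS and 0, 0.44 and 0 TPM in control libraries. Myl7 and the myeloid sum were both highest in DSS replicate 2, but Myl7 was lowest in DSS replicate 1 and the myeloid sum in DSS replicate 3. The sum is mostly Lyz2 and Cd74. Of the 12 markers 6 (Ptprc, Tyrobp, Csf1r, Adgre1, Cd68 and Itgam), like Vim, had the order of Myl7, highest in DSS replicate 2 and lowest in DSS replicate 1. All listed epithelial markers but Cdx1 and Cdx2, and also Actb and Actg1, had this order too. The order is therefore not particular to myeloid genes. Whether myeloid cells had a part in the Myl7 level was not tested. In bulk libraries more cells of a type and more RNA per cell cannot be told apart.

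**Figure D4:**
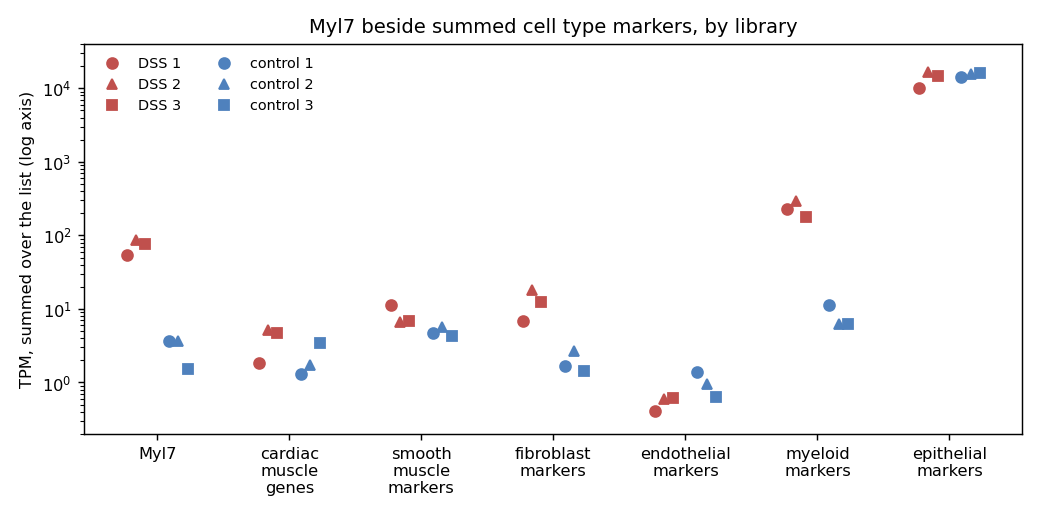
TPM of Myl7 beside the summed TPM of marker lists of other cell types in each library, on a log axis, DSS libraries (red) left of control libraries (blue), with 1 symbol for each replicate number. Myl7 and the myeloid markers are separate between the groups by a wide margin, while the cardiac sums overlap at 1.86 to 5.17 TPM in DSS and 1.32 to 3.40 TPM in control libraries. The smooth muscle, fibroblast and endothelial sums do not overlap either. Of these, the endothelial sums are lower in DSS libraries and the others higher.

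The genes near Myl7 on chromosome 11 that are given here differed less than Myl7. Protein-coding genes near it in RefSeq are Pold2, Aebp1 and Polm on one side and Ykt6 and Camk2b on the other. Pold2, a DNA polymerase delta subunit gene next to Myl7, was at 67.5, 30.9 and 48.3 TPM in DSS and 25.3, 27.7 and 30.2 TPM in control libraries (log2 fold change 0.73, SE 0.27, limma adjusted p = 0.126; 0.47 without DSS replicate 1). It was highest in DSS replicate 1, where Myl7 was lowest among the DSS libraries.

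Farther out, Camk2b, a calmodulin-dependent kinase gene, rose to 12.0 TPM in DSS organoids, against 4.72 TPM in control organoids (log2 fold change 1.16, SE 0.19, limma adjusted p = 0.0202). Polm, another DNA polymerase gene, rose to 9.28 TPM, against 5.32 TPM in control organoids (0.70, SE 0.13, adjusted p = 0.0278). Both calls ended without DSS replicate 3 or any 1 control library, and that of Polm also with no filter on low values or with a replicate block, with adjusted p values of up to 0.0957 for Camk2b and 0.137 for Polm over all alternatives. Ykt6, a membrane fusion gene, averaged 99.0 TPM in DSS and 96.2 TPM in control organoids (0.04, SE 0.09, adjusted p = 0.807), and Aebp1 was at 0 TPM in all DSS libraries and at most 0.06 TPM in control libraries.

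**Figure D5:**
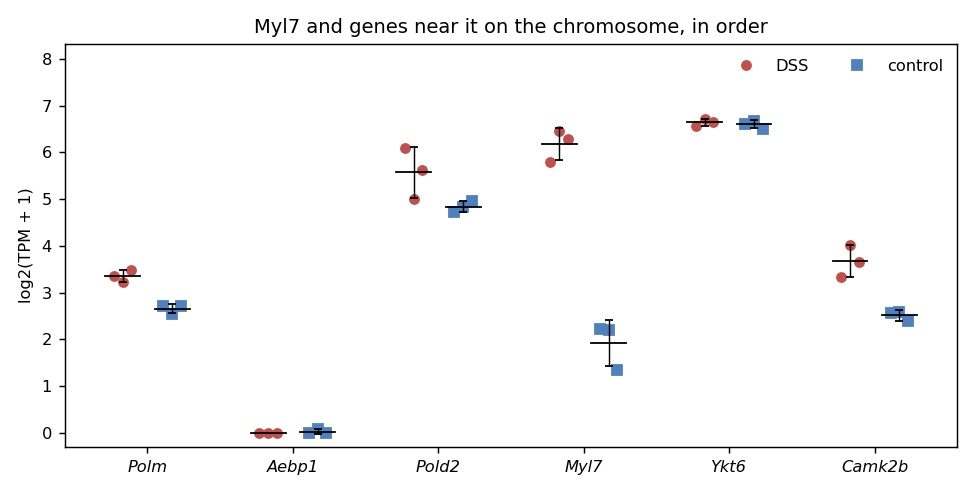
Level of Myl7 and of 5 protein-coding genes near it, in chromosomal order, as log2(TPM + 1), with 1 point for each library (DSS circles left, control squares right), the mean as a line and the SD as error bars (n = 3 each). Myl7 has the widest gap between the groups, and Aebp1 stays at or under 0.06 TPM.

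The genes whose profile over the 6 libraries was most like that of Myl7 were Mxi1, Nrf1, Arsa, Adgrl2 and Sgk1, with Pearson correlations of log2(TPM + 1) between 0.995 and 0.998. The libraries form 2 groups, and 330 of 11642 genes had a correlation above 0.95, so the correlation is in large part that of the 2 groups and is given as a description. Mxi1, which encodes a repressor that opposes Myc, was at 41.7, 52.0 and 46.3 TPM in DSS libraries, against 20.6, 19.5 and 16.4 TPM in control libraries. Like Myl7 it was highest in DSS replicate 2 and lowest in control replicate 3. Sgk1, a kinase gene induced by corticosteroids, was at 25.7, 34.2 and 30.9 TPM in DSS libraries, against 11.3, 12.0 and 8.20 TPM in control libraries. Arsa, which encodes the lysosomal arylsulfatase A, was at 8.31, 8.44 and 8.80 TPM in DSS libraries, against 4.90, 4.67 and 4.16 TPM in control libraries. Nrf1, a transcription factor gene known for mitochondrial targets, differed little, at 23.0 to 23.3 TPM in DSS and 18.1 to 18.7 TPM in control libraries. Adgrl2, which encodes an adhesion receptor, was at 17.8 to 20.4 TPM in DSS and 10.8 to 12.3 TPM in control libraries. Their differences were all smaller than that of Myl7, with log2 fold changes between 0.31 for Nrf1 and 1.45 for Sgk1.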

How the data were processed

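Library preparation used a NEBNext Ultra II RNA kit. RSEM 1.3.1, STAR 2.7.7a and 2.7.10a, cutadapt 3.5, Trim Galore 0.6.7 and build GRCm39 are listed in the submitters' processing notes, and the authors deposited 1 table of TPM per gene. RSEM estimates how reads shared by several genes divide. TPM keeps no depth, so no counting interval can be given.

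Log2(TPM + 1) of genes averaging at least 1 TPM was compared with limma 3.58.1 in R 4.3.3 (empirical Bayes with trend, two-sided, Benjamini-Hochberg, threshold 0.05), which was tested on simulated data. Fold changes on this scale understate those of low genes. Errors are SD over mice, and SE is moderated. The members and gene lists were chosen with earlier results of these data known. Beyond the members, list genes past the threshold (up to 6 a list), 9 direct partners of myosin, the 5 profiles most like Myl7 and neighbours of Myl7 were named, apart from a few genes not reported here, and any other gene was chosen after its values were seen. Of the listed names, 2 found no row and were not analysed here. RefSeq promoters (GRCm38.p6) were searched for 6 motifs, and GENCODE M21 transcripts for shared words. Alternatives were other pseudocounts, filters and scalings, no trend, a replicate block and left-out libraries.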

Additional observations from a re-analysis of the deposited data

How the results depend on the processing

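The gap of Myl7 kept its direction under all 15 alternatives, and its share of regulatory light chain TPM stayed within 5.54% to 6.26% in DSS and 0.209% to 0.291% in control organoids when single libraries were left out. Without Myl12a and Myl12b that share was 100% in DSS and 98.8% in control organoids, and without Myh14 the share of Myh9 among heavy chains was 99.97% in DSS and 99.94% in control organoids, by construction since few transcripts of the pool were left. The number of genes past the threshold was 1204, and 759 with no filter on low values, which tested 20126 genes. It was 44 (without control replicate 2) to 2515 (without DSS replicate 1) when 1 library was left out. Members past the threshold numbered 1 to 2 and list genes 4 to 34 in those fits, beside 0.378% to 21.7% of all genes. The second member was Mylk, without DSS replicate 1, when 21.7% of all genes passed. In a fit added after seeing the data, without both control replicate 3 and DSS replicate 1, the members past the threshold were also 2. Mylk was again the second, and 13.2% of all genes passed. Nothing is read from these counts of members. With the replicate number as a block 531 genes passed, among them 13 of the 18 list genes. Whether the numbers pair the mice is not known. Deviations of same-numbered libraries from their group means correlated at 0.20, 0.03 and 0.04, the first being the highest of all pairs. DSS replicate 2 correlated best with control replicate 3 (0.15). With n = 3 in each group the deviations depend on each other, so these values cannot decide it. Genes under 1 TPM, Myl9 and Myh10 among them, are limited by the unknown depth.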
